A study of Mus musculus with 9 samples.

Results

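The xenobiotic and steroid metabolising enzymes of mouse submandibular glands were chosen by gene symbol alone, with no measured value. A probe counted where its symbol on the platform named a cytochrome P450 of the families CYP1 to CYP4, or began with Gsta, Gstm, Gstp, Gstt, Gsto, Ugt1, Ugt2, Sult1, Sult2, Aldh1 or Aldh3. The rule found 208 probes for 132 genes, of 45281 probes and 19057 gene symbols on the array. Of these, 90 probes lay above the background level on at least 3 of the 9 arrays, and 63 of the genes could be tested, of 12848 genes tested in all. The prefix Aldh1 also took in Aldh16a1 and Aldh18a1, which are not members of the ALDH1 family.

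Cytochromes P450 of these families insert oxygen into drugs, pollutants, fatty acids and steroids, and aldehyde dehydrogenases oxidise reactive aldehydes and, in the ALDH1A group, make retinoic acid. The products, and many compounds with a reactive group of their own, are then joined to glutathione by glutathione S-transferases, to sulphate by sulfotransferases or to glucuronic acid by UDP-glucuronosyltransferases, which makes them easier to excrete. These enzymes are best known from the liver, but barrier and secretory epithelia, fat and steroid-responsive tissues carry sets of their own, and the ducts of the mouse submandibular gland depend on androgens.

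Expression was measured on 9 Illumina BeadChip arrays of submandibular gland RNA, 3 from glands labelled normal, 3 from glands labelled dysplastic and 3 from glands labelled adenocarcinomatous. All 9 carried the transgene Smgb-Tag, which places the SV40 large T antigen under control of a salivary gland gene, so the normal glands are transgenic as well and no gland without the transgene was analysed here. The labels give neither age nor sex and do not say whether the replicates were separate animals, and the p-values measure no more than the scatter of these samples, part or all of which may be technical. Values are the authors' normalized intensities on the log2 scale, the background level was 6.33 on that scale, and the number of arrays limits the precision.

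The arrays of the normal group were not alike. Over the tested genes normal 1 and normal 2 correlated at r = 0.992, whereas normal 3 correlated with them at 0.870 and 0.879 with dysplasia 1, 2 and 3 at 0.952, 0.970 and 0.931 and with adenocarcinoma 1, 2 and 3 at 0.951, 0.972 and 0.896 (across genes, which are not independent replicates). By this correlation normal 3 lay closer to each of the 6 dysplasia and adenocarcinoma arrays than to normal 1 or 2, which goes against its label. Marker lists differed in this. The summed intensity of 9 acinar markers was 172888 on normal 3, at least 290660 on normal 1 and 2 and at most 68642 in dysplasia. That of 6 adipocyte markers was 1653 on normal 3, at least 19207 on normal 1 and 2 and at most 1263 in dysplasia. Whether the label or the gland accounts for the correlation was not tested. Of the 63 tested enzyme genes, 0 differed by at least 2-fold between normal 2 and normal 1, against 0.7% of all genes. On normal 3 as compared with normal 1, 8 enzyme genes were at least 2-fold higher and 23 at least 2-fold lower, which is 49.2% of the enzyme genes against 23.5% of all genes. Comparisons with normal glands are therefore given on all 9 arrays and without normal 3. It was left out after its values had been seen, which leaves 2 nearly equal normal arrays, and p-values without it are too favourable.

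Most of the P450 and glucuronosyltransferase genes were above background on fewer than 3 arrays and were not tested. Of the 70 P450 genes on the array 24 were tested, 1 of 3 in CYP1, 14 of 43 in CYP2, 0 of 7 in CYP3 and 9 of 17 in CYP4. Probes for Cyp1a1, the classic target of the aryl hydrocarbon receptor, lay between 5.66 and 6.20 on the 9 arrays, and none of the probes for Cyp3a13 or Cyp2j6 was above background on more than 1 array. All 13 genes caught by the aldehyde dehydrogenase prefixes were tested, as were 17 of 20 glutathione transferase genes. Of the 29 sulfotransferase and glucuronosyltransferase genes 9 were tested, with 0 of 10 in UGT2 (Ugt2b34 and Ugt2b35 among those not tested) and without Sult1b1 and Sult1c2. Of the 69 genes not tested, 12 had a probe above background on 1 or 2 arrays and 57 had none on any array, which does not show that they are absent from the gland.

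**Figure D1:**
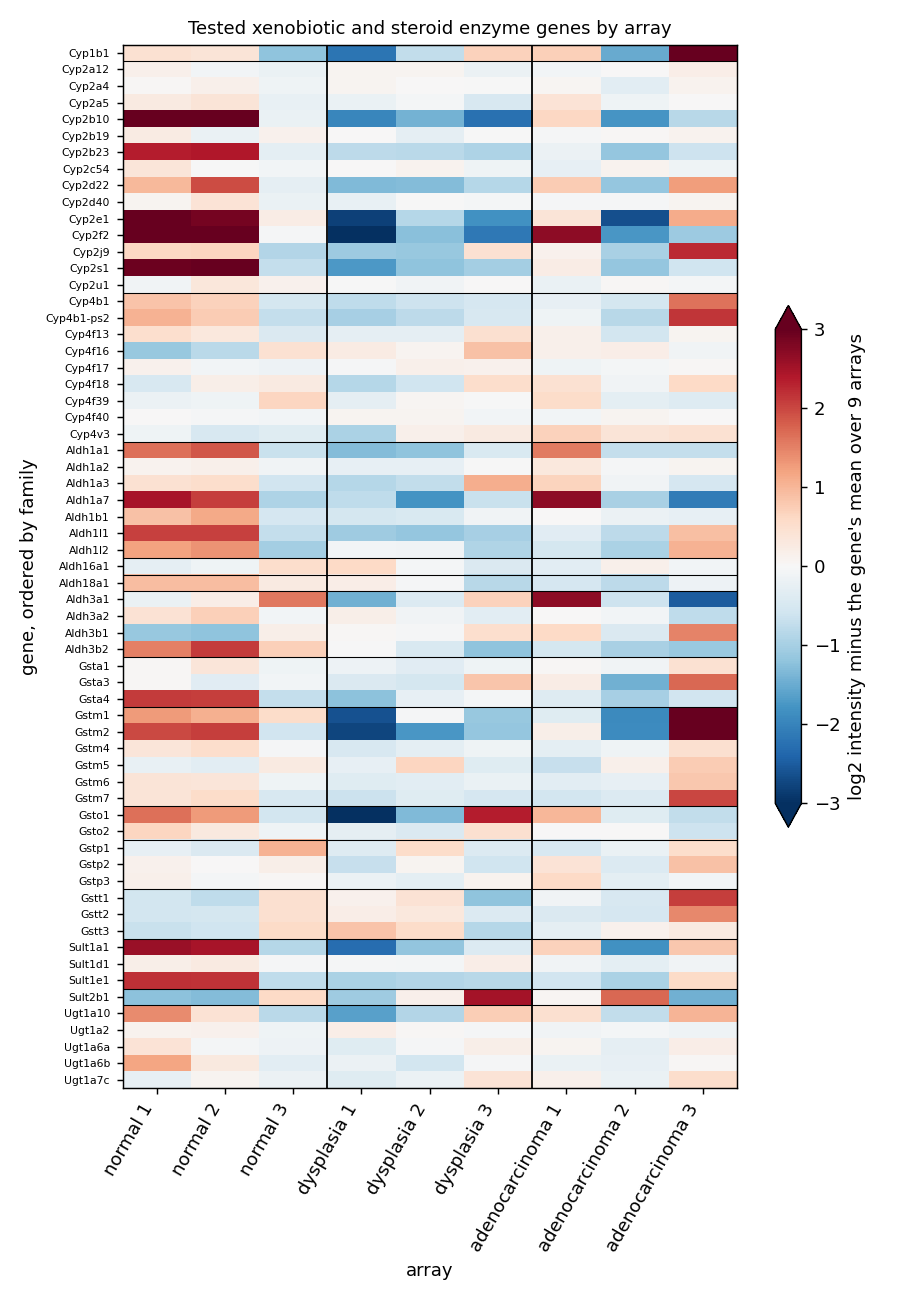
Log2 intensity of each of the 63 tested enzyme genes (rows, ordered by family) on each of the 9 arrays (columns), minus the gene's mean over the 9 arrays; red is above that mean and blue below, and the scale is capped at 3 in each direction. The darkest red cells lie on normal 1 and 2 (Cyp2b10, Cyp2e1, Cyp2f2, Cyp2s1) and on adenocarcinoma 3 (Cyp1b1, Gstm1, Gstm2), and dysplasia 1 holds the lowest value of 27 of the 63 genes.

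Promoter windows are shown for 4 genes to which the results return: Cyp2f2 and Cyp2b10, with the lowest fold changes in dysplasia against normal, Cyp1b1, the tested CYP1 gene, and Gsta3, a glutathione transferase well above background on every array. The sequences are RefSeq's for the build GRCm38.p6, 250 bases before the annotated gene start, written in the direction of the gene. Capitals mark GCGTG, the core bound by the aryl hydrocarbon receptor with its partner ARNT (CACGC where it lies on the other strand), and TGACNNNGC, the core of the antioxidant response element bound by NRF2. They come from chr7:27119705-27119954 (plus strand) for Cyp2f2, chr7:25897408-25897657 (plus strand) for Cyp2b10, chr17:79715062-79715311 (minus strand) for Cyp1b1 and chr1:21240335-21240584 (plus strand) for Gsta3.
Cyp2f2: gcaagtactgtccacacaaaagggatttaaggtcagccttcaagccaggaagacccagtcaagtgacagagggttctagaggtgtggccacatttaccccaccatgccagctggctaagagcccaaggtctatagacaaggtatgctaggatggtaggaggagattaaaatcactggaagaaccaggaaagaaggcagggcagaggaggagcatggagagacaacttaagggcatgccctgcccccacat
Cyp2b10: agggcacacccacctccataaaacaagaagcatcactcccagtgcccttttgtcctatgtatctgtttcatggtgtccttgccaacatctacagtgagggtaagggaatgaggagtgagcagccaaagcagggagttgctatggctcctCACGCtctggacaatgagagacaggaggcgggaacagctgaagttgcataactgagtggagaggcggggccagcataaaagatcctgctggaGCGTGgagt
Cyp1b1: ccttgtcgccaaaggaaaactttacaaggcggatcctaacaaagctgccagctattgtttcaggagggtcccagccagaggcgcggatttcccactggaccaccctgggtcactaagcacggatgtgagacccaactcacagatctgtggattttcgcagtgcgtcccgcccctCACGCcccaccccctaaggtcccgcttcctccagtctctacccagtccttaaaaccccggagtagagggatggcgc
Gsta3: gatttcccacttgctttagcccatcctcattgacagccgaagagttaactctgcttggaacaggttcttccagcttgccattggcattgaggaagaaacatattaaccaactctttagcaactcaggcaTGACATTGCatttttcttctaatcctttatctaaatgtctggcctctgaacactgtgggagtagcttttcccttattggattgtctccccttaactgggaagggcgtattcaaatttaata

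The Cyp2b10 window holds GCGTG at 2 places, starting 101 and 9 bases before the gene start, and the Cyp1b1 window holds it once, 76 bases before the start. The Gsta3 window holds TGACNNNGC once, 121 bases before the start, and neither core is in the Cyp2f2 window. Searched on both strands, GCGTG was in 16 of 61 windows of tested enzyme genes (26.2%), against 28.2% of all 32851 RefSeq windows. TGACNNNGC was in 5 of the 61 (8.2%), against 10.2% of all windows. The windows belonged to 51 of the 63 genes, some of which have more than 1 start. A match describes these letters and is not a binding site, and a window without one says nothing of the factor.

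The first question was how the enzymes of dysplastic and normal glands differ. These are bulk samples, in which fewer cells of a type and less RNA per cell cannot be told apart. Cytochrome P450 genes of the CYP2 family were the furthest apart. Cyp2f2, which oxidises naphthalene and is known from airway club cells, had log2 intensities of 7.43, 9.40 and 8.49 on dysplasia 1, 2 and 3, against 13.85, 14.24 and 10.61 on normal 1, 2 and 3. Every dysplasia array was below every normal array, with normal 3 between normal 2 and the dysplasia arrays. The log2 fold change was -4.46 ± 1.34 (moderated SE, limma adjusted p = 0.163), or 22.0-fold lower in dysplasia. Without normal 3 it was -5.61 ± 1.26 (adjusted p = 0.0204).

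Cyp2b10, a P450 that the constitutive androstane receptor induces in liver, had log2 intensities of 6.01, 6.56 and 5.75 in dysplasia, against 11.80, 11.93 and 7.77 in normal glands. In dysplasia 1 and 3 it was below background, and the groups did not overlap. Its log2 fold change was -4.39 ± 1.10 (adjusted p = 0.159), and -5.76 ± 0.63 without normal 3 (adjusted p = 0.0022). Cyp2e1, the ethanol-inducible P450, was at 6.02, 7.95 and 6.99 in dysplasia and at 12.34, 11.68 and 9.05 in normal glands, again without overlap (log2 fold change -4.03 ± 1.15, adjusted p = 0.16). Cyp2s1, an extrahepatic P450 of epithelia, was at 6.13, 6.64 and 6.83 in dysplasia and at 10.79, 11.11 and 7.13 in normal glands (-3.15 ± 0.97, adjusted p = 0.167). For Cyp2s1 normal 3 was closer to dysplasia 3 than to the other normal arrays.

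Cyp2b23, a further CYP2B gene, was below background on all 3 dysplasia arrays (6.0, 5.99 and 5.86), against 9.14, 9.19 and 6.50 in normal glands. It was at least 3.86-fold lower in dysplasia (adjusted p = 0.16), counting dysplasia at the background level. Cyp2d22, the mouse counterpart of the human drug oxidase CYP2D6, was at 6.82, 6.85 and 7.30 in dysplasia and at 9.12, 10.10 and 7.88 in normal glands (-2.05 ± 0.71, adjusted p = 0.175). The second kept probe of Cyp2d22 gave a difference of 0.06, so the lower value rests on the brighter probe. Cyp2a5, a coumarin hydroxylase, was below background on all dysplasia arrays and at most at 6.73 in normal glands, at least 1.11-fold lower in dysplasia (adjusted p = 0.328). In 6 of the 14 tested CYP2 genes the dysplasia arrays all lay under the normal ones, and the opposite held for 0, against 10.4% of all genes lower and 12.3% higher on every dysplasia array, and 0 passed the threshold. The family's median log2 fold change was -0.55.

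**Figure D2:**
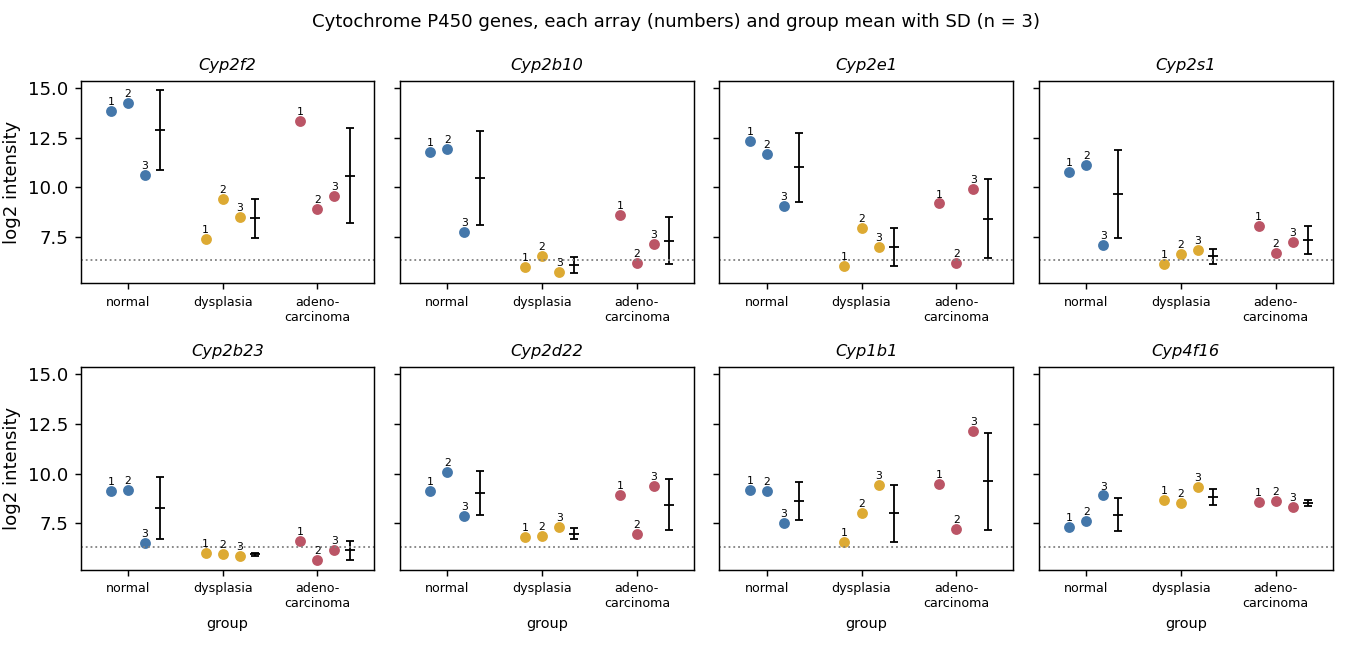
Log2 intensity (vertical axes) of 8 P450 genes on each array (numbered points) by group, with the group mean and SD (bars, n = 3) and the background level (dotted line). For Cyp2f2, Cyp2b10, Cyp2e1, Cyp2s1, Cyp2b23 and Cyp2d22 the dysplasia points all lie under the normal ones, while those of Cyp1b1 and Cyp4f16 overlap.

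Of the 6 CYP2 genes without overlap, 4 are near each other in the genome, and Cyp2e1 and Cyp2d22 lie elsewhere. In RefSeq's order a run of 13 neighbouring protein-coding genes holds Cyp2s1, Cyp2b10, Cyp2b23, Cyp2a5 and Cyp2f2, and 8 of the 13 were tested. Of these tested neighbours, the 4 genes Cyp2s1, Cyp2b10, Cyp2b23 and Cyp2f2 were lower on every dysplasia array, whereas Cyp2a4, Cyp2a5, Cyp2a12 and Cyp2b19 stayed between 5.84 and 6.73 on the 9 arrays, on the probes that stood for them. Probes for such close relatives may not tell them apart. Genes of the other P450 families spread around 0. Cyp1b1, which hydroxylates oestradiol and polycyclic hydrocarbons, was at 6.56, 8.01 and 9.45 in dysplasia and at 9.20, 9.14 and 7.54 in normal glands, with full overlap (-0.62 ± 1.23, adjusted p = 0.792). Of the 9 tested CYP4 genes, which mostly hydroxylate fatty acids, 4 were above 0 and 5 below, with a median of -0.15.

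Cyp4f16, a CYP4F gene, had the highest P450 fold change. It was at 8.69, 8.52 and 9.31 in dysplasia, against 7.31, 7.63 and 8.91 in normal glands (0.89 ± 0.41, adjusted p = 0.24). Normal 3 lay among the dysplasia arrays, and without it the difference was 1.37 ± 0.26 (adjusted p = 0.0119). All 3 kept probes of Cyp4f16 were higher in dysplasia, by 0.60 to 0.89. Cyp4b1, a P450 of lung and bladder epithelium, differed by -0.97 ± 0.58 (log2, adjusted p = 0.35), and its pseudogene Cyp4b1-ps2, whose probe may share transcripts with it, by -1.12 ± 0.76 (adjusted p = 0.4). Cyp4v3, a fatty acid hydroxylase, and Cyp4f17 were within 0.15 of no difference (adjusted p = 0.81 and 0.653).

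Among the glutathione transferases, the dysplasia arrays all lay under the normal ones in 4 of the 6 tested mu-class genes and in 0 theta-class genes, against 10.4% of all genes. Gstm2, which like the other mu enzymes conjugates electrophiles, was at 8.13, 9.15 and 9.73 in dysplasia and at 12.87, 12.97 and 10.32 in normal glands, a difference of -3.05 ± 1.39 in log2 (adjusted p = 0.239). Its 3 kept probes gave -3.05 to -2.97. Gstm1 was at 7.12, 9.70 and 8.61 in dysplasia and at 11.00, 10.80 and 10.29 in normal glands (-2.22 ± 1.20, adjusted p = 0.303), and here all 3 normal arrays were close together. Gstm4 and Gstm6 were also lower on every dysplasia array, by 0.59 and 0.49 on the log2 scale (adjusted p = 0.212 and 0.365). The second kept probe of Gstm6, near background, gave a difference of -0.08 with overlap, so its lower value rests on the brighter probe. Gstm5 differed by 0.11 ± 0.41 (adjusted p = 0.898), with 10.76, 11.65 and 10.65 in dysplasia and 10.79, 10.67 and 11.27 in normal glands. In the run of 7 neighbouring Gstm genes, Gstm5 is the tested member with a fold change above 0. Probes for the closest relatives in this run may not tell them apart.

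Gsta4, which conjugates the lipid peroxidation product 4-hydroxynonenal, was at 6.49, 7.49 and 7.68 in dysplasia and at 9.84, 9.80 and 7.02 in normal glands. Normal 3 lay below dysplasia 2 and 3, so the groups overlapped (-1.66 ± 0.73, adjusted p = 0.229), and without it the difference was -2.60 ± 0.36 (adjusted p = 0.00453). Gsta3, which also isomerises steroids, was at 10.89, 10.78 and 12.14 in dysplasia and 11.36, 10.97 and 11.23 in normal glands (0.09 ± 0.73, adjusted p = 0.958). Gstp1, the pi-class enzyme often abundant in tumours, was at 11.06, 12.0 and 11.04 in dysplasia and at 11.20, 11.02 and 12.49 in normal glands (-0.20 ± 0.47, adjusted p = 0.827). The 3 kept probes of Gstp1 gave -0.20 to 0.29, so they disagree in sign. The theta genes Gstt1, Gstt2 and Gstt3 had log2 fold changes of 0.05, 0.23 and 0.42 (adjusted p = 0.973, 0.832 and 0.635). A second, dimmer kept probe of Gstt2 read 7.53, 7.75 and 7.13 in dysplasia and 6.10, 5.95 and 6.58 in normal glands. On it every dysplasia array was above every normal array, with a difference of 1.27, so the probes of Gstt2 disagree in size. Gsto1, an omega-class enzyme that reduces dehydroascorbate and arsenic compounds, was at 7.65, 9.64 and 13.30 in dysplasia and at 12.62, 12.23 and 10.39 in normal glands, with both the lowest and the highest value in dysplasia (-1.55 ± 1.33, adjusted p = 0.509).

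Both SULT1 genes that lay clearly above background were highest on normal 1 and normal 2. Sult1e1, which inactivates oestrogen by sulphation, was below background on all dysplasia arrays (5.91, 5.98 and 6.04), against 9.06, 9.02 and 6.10 in normal glands. Normal 3 was below background too, and the gene was at least 3.33-fold lower in dysplasia (adjusted p = 0.186). Sult1a1, a phenol sulfotransferase, was at 6.11, 7.21 and 7.98 in dysplasia and at 10.99, 10.86 and 7.53 in normal glands (-2.69 ± 1.08, adjusted p = 0.203), with normal 3 among the dysplasia arrays. Sult1d1, which sulphates catecholamines, was at most at 6.65 on these arrays on the probe that stood for it (-0.10 ± 0.15, adjusted p = 0.726). Sult2b1, which sulphates cholesterol and other 3-beta-hydroxysteroids in epithelia, had the highest fold change of the tested enzymes, 1.18 ± 1.08 (adjusted p = 0.539). It was at 6.54, 7.76 and 10.11 in dysplasia and at 6.37, 6.31 and 8.21 in normal glands, so dysplasia 3 carries most of the difference. All 3 of its kept probes were higher in dysplasia, by 0.54 to 1.18.

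Of the glucuronosyltransferases, Ugt1a10 was at 7.35, 8.10 and 9.70 in dysplasia and at 10.39, 9.40 and 8.17 in normal glands, with overlap (-0.94 ± 0.77, adjusted p = 0.492). Ugt1a6a, which glucuronidates planar phenols, differed by -0.14 ± 0.23 (adjusted p = 0.747) on the probe that stood for it. Another of its probes, above background on 2 arrays and not kept, read 5.99, 5.98 and 6.04 in dysplasia and 7.42, 6.65 and 6.19 in normal glands. The genes of the Ugt1 locus share their last exons, and a run of 9 neighbours, 5 of them tested, makes up the locus, so probes in the shared exons cannot tell its transcripts apart.

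Of the 13 genes caught by the aldehyde dehydrogenase prefixes, 12 had a log2 fold change below 0, against 46.2% of all genes. Among the 12 were the 7 of the ALDH1 family, and 0 passed the threshold. Aldh3b2, an enzyme of lipid aldehydes, was at 7.31, 6.87 and 6.11 in dysplasia and at 8.85, 9.42 and 8.04 in normal glands. The groups did not overlap, and normal 3 lay above every dysplasia array. At -2.00 ± 0.41 it had the lowest adjusted p of the enzymes (0.137), and without normal 3 the difference was -2.37 ± 0.38 (adjusted p = 0.00668). Aldh1l1, which oxidises formyltetrahydrofolate, was at 6.33, 6.23 and 6.39 in dysplasia and at 9.45, 9.45 and 6.68 in normal glands (-2.20 ± 0.75, adjusted p = 0.175). The second kept probe of Aldh1l1, near background, gave a difference of -0.14 with overlap, so the lower value rests on the brighter probe. Aldh18a1, which makes proline from glutamate, was at 10.02, 9.77 and 8.98 in dysplasia and at 10.74, 10.74 and 10.08 in normal glands (-0.93 ± 0.32, adjusted p = 0.175).

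Aldh1a1, a retinaldehyde dehydrogenase, was at 6.14, 6.24 and 6.99 in dysplasia and at 9.11, 9.31 and 6.78 in normal glands (-1.95 ± 0.82, adjusted p = 0.217). Its neighbour Aldh1a7 was at 7.38, 6.36 and 7.47 in dysplasia and at 10.61, 10.22 and 7.22 in normal glands (-2.28 ± 1.30, adjusted p = 0.328). In both genes normal 3 overlapped with the dysplasia arrays. The other retinaldehyde dehydrogenases, Aldh1a2 and Aldh1a3, had log2 fold changes of -0.22 and -0.30 (adjusted p = 0.433 and 0.779) on the probes that stood for them. Their second kept probes disagreed with these. That of Aldh1a2 gave 0.08, and that of Aldh1a3 gave -1.41. The latter read 6.03, 6.01 and 6.33 in dysplasia and 7.90, 8.50 and 6.20 in normal glands. Mitochondrial Aldh1b1 and Aldh1l2 had -0.87 and -0.88 (adjusted p = 0.238 and 0.495), and Aldh1b1 passed without normal 3 (-1.38 ± 0.19, adjusted p = 0.00429). Aldh3a1, which protects the cornea, and Aldh3a2, the fatty aldehyde dehydrogenase, had -0.91 and -0.44 (adjusted p = 0.682 and 0.378). Aldh3b1 stood on the other side, at 9.57, 9.50 and 10.03 in dysplasia against 8.41, 8.33 and 9.71 in normal glands (0.88 ± 0.53, adjusted p = 0.35).

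**Figure D3:**
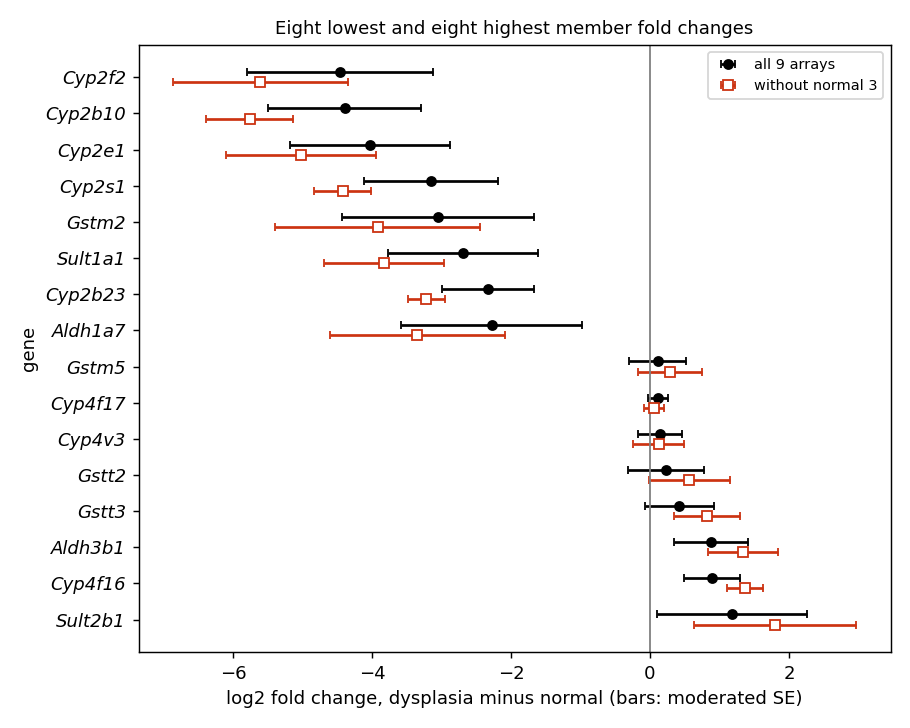
Log2 fold change, dysplasia minus normal (horizontal axis), of the 8 lowest and the 8 highest tested enzyme genes, with the moderated SE as bars, on all 9 arrays (filled circles) and without normal 3 (open squares). Cyp2f2 and Cyp2b10 are the lowest and Sult2b1 the highest; Cyp2b23 was below background on every dysplasia array, so its fitted value is no bound.

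Across the tested enzymes, 0 of 63 passed an adjusted p of 0.05 in dysplasia against normal on all 9 arrays, as did 0.0% of all genes tested with limma. At an unadjusted p under 0.05, 13 enzyme genes were lower (20.6%, against 10.1% of all genes) and 0 were higher (against 12.0%). Groups did not overlap for 14 that were lower (22.2%, against 10.4% of all genes) and for 0 that were higher (against 12.3%). The median log2 fold change of the enzymes was -0.40, and that of all genes 0.04. Without the filter on dim probes, 21 of the 132 genes were lower on every dysplasia array and 1 was higher, against 9.21% and 9.78% of all genes. Over both directions the 14 enzymes without overlap became 34 without normal 3 (54.0%, against 59.3% of all genes) and 30 without dysplasia 3 (47.6%, against 40.2%). Without normal 3, 15 enzymes passed lower and 1, Cyp4f16, passed higher, against 11.2% and 12.4% of all genes. When limma weighted the arrays by their agreement, 35 passed lower and 8 higher, against 28.4% and 32.5% of all genes.

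The promoter windows of the lower genes were searched for the same cores. Of the 14 genes lower on every dysplasia array, 12 had a promoter window, 16 windows in all. GCGTG was in 4 of these 16 (25.0%, against 28.2% of all windows) and TGACNNNGC in 0 (against 10.2%). Both shares are descriptions of short letter strings and were not tested.

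The second question was which enzymes set the tumours apart from normal glands. Most CYP2 genes had a lower mean in the tumours, 12 of 14 tested, against 49.2% of all genes. Some of these lay near background, where the sign says little, such as Cyp2a4 with means of 6.21 and 6.28. For 0 of the 14 did the groups lie apart, against 9.71% of all genes lower and 10.3% higher. Cyp2f2 was at 13.33, 8.91 and 9.56 on adenocarcinoma 1, 2 and 3, against 13.85, 14.24 and 10.61 in normal glands, so adenocarcinoma 1 lay above normal 3 (-2.30 ± 1.34, adjusted p = 0.411). Cyp2b10 was at 8.60, 6.22 and 7.16 in adenocarcinoma and at 11.80, 11.93 and 7.77 in normal glands, the lowest fold change of the enzymes here (-3.17 ± 1.10, adjusted p = 0.272). Without normal 3 its difference was -4.54 ± 0.63 (adjusted p = 0.00625). Cyp2e1 was at 9.19, 6.18 and 9.92 in adenocarcinoma and at 12.34, 11.68 and 9.05 in normal glands, with overlap (-2.59 ± 1.15, adjusted p = 0.323).

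Cyp2s1 was at 8.08, 6.68 and 7.25 in adenocarcinoma, against 10.79, 11.11 and 7.13 in normal glands (-2.34 ± 0.97, adjusted p = 0.305). Cyp2b23 was at 6.61, 5.64 and 6.18 in adenocarcinoma, with 1 tumour above background, against 9.14, 9.19 and 6.50 in normal glands (-2.13 ± 0.67, adjusted p = 0.253). In both genes normal 3 overlapped with the tumours. Cyp2d22 was at 8.92, 6.98 and 9.40 in adenocarcinoma and overlapped with normal glands (-0.60 ± 0.71, adjusted p = 0.694), as did Cyp2a5 (-0.06 ± 0.23, adjusted p = 0.918) and Cyp4b1 (-0.06 ± 0.58, adjusted p = 0.969).

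Cyp4v3 was the P450 that separated tumours from normal glands upward. It was at 9.58, 9.27 and 9.33 in adenocarcinoma and at 8.74, 8.41 and 8.52 in normal glands, with a spread within each group of 0.16 and 0.17 (SD, n = 3 each). The log2 fold change was 0.84 ± 0.31 (adjusted p = 0.282), and normal 3 lay with the other normal arrays. Cyp4f16 was at 8.59, 8.64 and 8.34 in adenocarcinoma and at 7.31, 7.63 and 8.91 in normal glands (0.58 ± 0.41, adjusted p = 0.488), and without normal 3 it passed (1.05 ± 0.26, adjusted p = 0.0371). Cyp1b1 was at 9.48, 7.23 and 12.14 in adenocarcinoma and at 9.20, 9.14 and 7.54 in normal glands (0.99 ± 1.23, adjusted p = 0.711), where the difference rests on adenocarcinoma 3, since it was -0.27 without that array. Cyp2j9, an arachidonic acid epoxygenase, had 0.34 ± 0.85 (adjusted p = 0.866), again with its highest value, 9.54, on adenocarcinoma 3 and -0.55 without it.

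Aldh3b2 was again the enzyme with the lowest adjusted p. It was at 6.79, 6.35 and 6.22 in adenocarcinoma and at 8.85, 9.42 and 8.04 in normal glands, every tumour below every normal array (-2.31 ± 0.41, adjusted p = 0.174). Aldh18a1 was also lower on every tumour, at 9.31, 9.02 and 9.66, against 10.74, 10.74 and 10.08 in normal glands (-1.19 ± 0.32, adjusted p = 0.224). Aldh3b1 had the highest fold change of the enzymes, at 10.14, 9.09 and 11.02 in adenocarcinoma against 8.41, 8.33 and 9.71 in normal glands (1.27 ± 0.53, adjusted p = 0.309). All 3 kept probes of Aldh3b1 were higher in the tumours, by 0.28 to 1.27. Aldh1a7, at 10.84, 7.17 and 6.06 in adenocarcinoma, and Aldh3a1, at 11.28, 7.99 and 6.11, were both highest on adenocarcinoma 1 and below background on adenocarcinoma 3 (adjusted p = 0.632 and 0.81). Aldh1a1, Aldh1a2, Aldh1a3, Aldh1b1, Aldh1l1, Aldh1l2 and Aldh3a2 had log2 fold changes between -1.20 and 0.08, with adjusted p between 0.328 and 0.934.

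Glutathione transferases of the mu class spread widely among the tumours. Gstm2 was at 11.06, 9.0 and 14.77 in adenocarcinoma and at 12.87, 12.97 and 10.32 in normal glands, and Gstm1 was at 9.38, 7.83 and 12.89 in adenocarcinoma, against 11.00, 10.80 and 10.29 in normal glands. In both, adenocarcinoma 3 was the highest of the 9 arrays, and Gstm2 differed by -0.44 (log2, adjusted p = 0.895) and Gstm1 by -0.66 (adjusted p = 0.81). Gsta4 was at 7.35, 6.74 and 7.17 in adenocarcinoma against 9.84, 9.80 and 7.02 in normal glands (-1.80 ± 0.73, adjusted p = 0.3), and passed without normal 3 (-2.73 ± 0.36, adjusted p = 0.0056). Gstt1 was at 9.48, 9.11 and 11.66 in adenocarcinoma and at 9.05, 8.84 and 10.07 in normal glands (0.76 ± 0.73, adjusted p = 0.621), with -0.03 without adenocarcinoma 3. Gsta3, Gstm5, Gstp1, Gstt2 and Gsto1 had log2 fold changes between -0.83 and 0.36 (adjusted p 0.771 to 0.876). The second kept probe of Gstt2 read 7.62, 7.07 and 9.15 in adenocarcinoma and 6.10, 5.95 and 6.58 in normal glands, a difference of 1.74 without overlap.

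Among the sulfotransferases, Sult1a1 was at 9.07, 6.57 and 9.19 in adenocarcinoma and at 10.99, 10.86 and 7.53 in normal glands (-1.52 ± 1.08, adjusted p = 0.49). Sult1e1 was at 6.30, 5.91 and 7.44 in adenocarcinoma, with 1 tumour above background, and at 9.06, 9.02 and 6.10 in normal glands (-1.51 ± 0.77, adjusted p = 0.369). On the probe that stood for it, Sult1d1 was at 6.26, 6.07 and 6.28 in adenocarcinoma and at 6.54, 6.65 and 6.33 in normal glands (-0.31 ± 0.15, adjusted p = 0.359). A second probe of Sult1d1, above background on 1 array and not kept, was at 6.97 on adenocarcinoma 1 and at most at 6.10 on every other array, so the probes disagree and no bound is given. Sult2b1 was at 7.66, 9.32 and 6.17 in adenocarcinoma and at 6.37, 6.31 and 8.21 in normal glands (0.75 ± 1.08, adjusted p = 0.754), and Ugt1a6a differed by -0.06 ± 0.23 (adjusted p = 0.91).

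**Figure D4:**
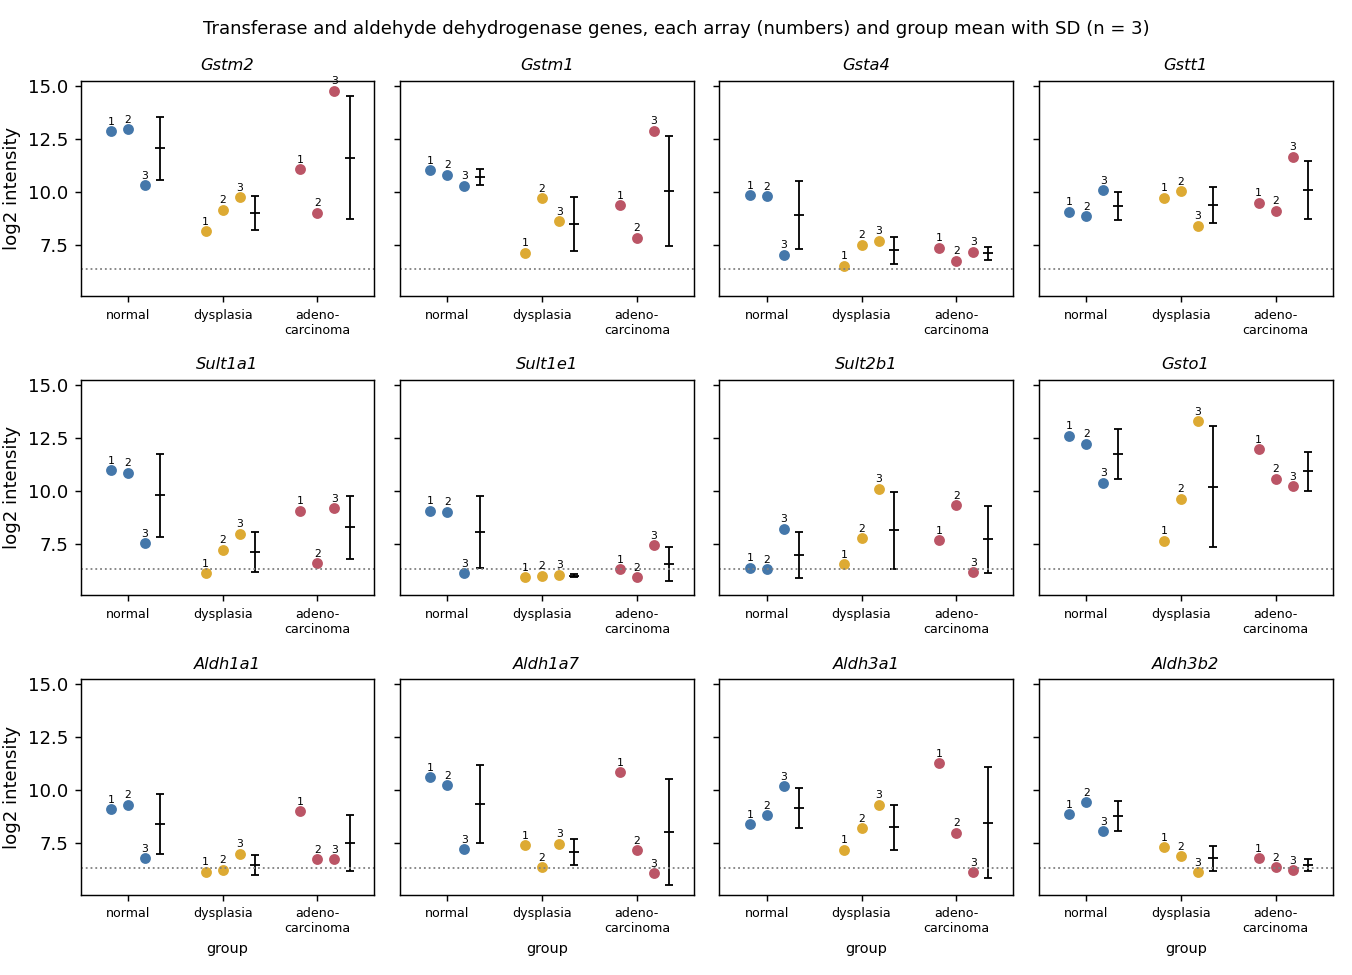
Log2 intensity (vertical axes) of 12 transferase and aldehyde dehydrogenase genes on each array (numbered points) by group, with the group mean and SD (bars, n = 3) and the background level (dotted line). Aldh3b2 is lower on every dysplasia and adenocarcinoma array than on any normal array, Sult1e1 is below background on every dysplasia array, and Gstm1 and Gstm2 are highest on adenocarcinoma 3.

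In adenocarcinoma against normal, 0 of 63 enzymes passed on all 9 arrays, as did 0.0% of all genes with limma. At an unadjusted p under 0.05, 6 were lower (against 7.79% of all genes) and 2 higher, Aldh3b1 and Cyp4v3 (against 8.0%). Groups did not overlap for 3 lower enzymes, Aldh18a1, Aldh3b2 and Sult1d1 (against 9.71% of all genes), and for 1 higher enzyme, Cyp4v3 (against 10.3%), shares of 4.76% and 1.59% that are both below those of all genes. Over both directions the 4 without overlap became 27 without normal 3 (42.9%, against 55.7% of all genes). They became 12, 11 and 7 without adenocarcinoma 1, 2 and 3 (19%, 17.5% and 11.1%, against 29.5%, 29.7% and 29.1% of all genes). The median log2 fold change was -0.12, against 0.01 for all genes. Without normal 3, 9 passed lower and 1, Cyp4f16, higher (against 7.85% and 7.59% of all genes). With array weights 15 passed lower and 3 higher (against 16.9% and 17.9%).

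The third question was what separates the tumours from the dysplastic glands. Most enzymes were somewhat higher in the tumours, with 46 of 63 fold changes above 0. The 17 below 0 were 27.0% of the enzymes, against 56.0% of all genes. The median was 0.22, against -0.04 for all genes. Gstm2 had the highest fold change, at 11.06, 9.0 and 14.77 in adenocarcinoma against 8.13, 9.15 and 9.73 in dysplasia (2.61 ± 1.39). Cyp2f2 was at 13.33, 8.91 and 9.56 in adenocarcinoma and at 7.43, 9.40 and 8.49 in dysplasia (2.16 ± 1.34). Cyp1b1, Gstm1, Cyp2e1, Cyp2d22, Cyp2b10 and Sult1a1 followed, with 1.61, 1.56, 1.44, 1.44, 1.22 and 1.18. In each of these 8 genes adenocarcinoma 2 overlapped with the dysplasia arrays, and the adjusted p of every one was 0.888.

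Groups did not overlap for 3 enzymes higher in adenocarcinoma than in dysplasia (against 4.02% of all genes) and for 2 lower ones (against 6.59%). These 5 became 11 without dysplasia 2 (17.5%, as of all genes), 19 without dysplasia 3 (30.2%, against 32.3%) and 22 without adenocarcinoma 2 (34.9%, against 29.8%). Cyp4v3 was at 9.58, 9.27 and 9.33 in adenocarcinoma and at 7.94, 9.03 and 9.14 in dysplasia (0.69 ± 0.31, adjusted p = 0.888). On its brighter probe, Aldh1l1 was at 7.06, 6.61 and 8.30 in adenocarcinoma and at 6.33, 6.23 and 6.39 in dysplasia (1.00 ± 0.75, adjusted p = 0.888). The other 3, Gsta1 among the higher and Sult1d1 and Ugt1a2 among the lower, were at most at 6.88 on the 9 arrays on the probes that stood for them. The 8 lowest fold changes were those of Sult2b1 (-0.43), Cyp4f16 (-0.32), Aldh3b2 (-0.31), Aldh18a1 (-0.27), Sult1d1 (-0.21), Aldh3a2 (-0.18), Ugt1a2 (-0.16) and Gstt3 (-0.14), with adjusted p between 0.888 and 0.967. With limma 0 of 63 enzymes passed an adjusted p of 0.05 (against 0.0% of all genes), and at an unadjusted p under 0.05, 0 were higher and 0 lower (against 2.02% and 2.23%).

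The highest and lowest values of the enzymes were unevenly spread over the arrays. Adenocarcinoma 3 held the highest value of 18 of the 63 enzyme genes (28.6%, against 14.1% of all genes), normal 2 of 16 and normal 1 of 12. Dysplasia 1 held the lowest value of 27 (42.9%, against 14.6% of all genes). Set against the mean of normal 1 and 2, at least 2-fold lower values were seen for 24 enzymes on normal 3, for 26, 25 and 20 on dysplasia 1, 2 and 3, and for 17, 25 and 18 on adenocarcinoma 1, 2 and 3. These counts were 38.1% of the enzymes on normal 3, 31.7% to 41.3% on the dysplasia arrays and 27.0% to 39.7% on the adenocarcinoma arrays. For all genes these shares were 11.5% on normal 3, 12.0% to 14.3% on the dysplasia arrays and 7.88% to 12.1% on the adenocarcinoma arrays. The count of 24 on normal 3 lies within the 20 to 26 of the dysplasia arrays. At least 2-fold higher values were seen for 8 enzymes on normal 3 (12.7%, against 11.1% of all genes). They were seen for 11 on adenocarcinoma 3 (17.5%, against 12.6%) and for 2 to 5 on each of the other arrays. In 19 genes with more than 1 kept probe, the probes' differences between dysplasia and normal had the same sign in 13.

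The genes around these enzymes were counted from lists of the pathway. On all 9 arrays no gene of the 9 lists passed in any of the 3 comparisons, and counts that follow are those without normal 3, for dysplasia against normal. Of 19 tested genes of other phase I enzymes, such as flavin monooxygenases, carboxylesterases and alcohol dehydrogenases, 9 passed lower and 0 higher. The carboxylesterase Ces1d was at 6.44, 8.49 and 7.44 in dysplasia and at 13.47, 13.04 and 9.20 in normal glands, and the flavin monooxygenase Fmo1 at 6.42, 7.01 and 7.16 in dysplasia and at 11.71, 11.53 and 7.29 in normal glands. In both genes every dysplasia array was below every normal array. Of 13 tested genes of steroid synthesis and reduction 4 passed lower and 1 higher, with Hsd11b1, which regenerates active glucocorticoid, at 6.58, 8.19 and 9.18 in dysplasia and 13.27, 13.60 and 8.94 in normal glands, where normal 3 overlapped with dysplasia.

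Of 3 tested electron donors of P450 enzymes, the cytochromes b5 Cyb5a and Cyb5b passed lower and Cyb5r3 did not pass. Of 10 tested regulators 1 passed lower, Nr1i2, the pregnane X receptor, at 6.26, 6.40 and 6.07 in dysplasia and 6.90, 6.85 and 6.33 in normal glands. Nfe2l2, which encodes NRF2, differed by -0.36 in log2 (adjusted p = 0.635, with all 9 arrays) and its inhibitor Keap1 by -0.07 (adjusted p = 0.877), while Ahr was not tested. Among 11 tested NRF2 targets 1 passed higher, Txnrd1, and 1 lower, Tkt. Among 13 genes of glutathione supply and other glutathione enzymes 1 passed higher, Gstcd, and 1 lower, Gstk1, and among 12 genes of retinoid handling 1 passed higher, Rdh11, and 1 lower, Crabp2. Of 4 tested genes of conjugation cofactor supply 0 passed, and of 6 efflux transporters 1 passed higher, Abcc4, and 0 lower. The share of all genes that passed without normal 3 was 12.4% higher and 11.2% lower.

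Marker genes of other cell types differed across the same arrays. The summed intensity of the 6 tested of 9 adipocyte markers was 1653 to 36487 in normal glands, 438 to 1263 in dysplasia and 474 to 7830 in adenocarcinoma, with the lowest normal value on normal 3. All 6 were above background on normal 1, normal 2 and adenocarcinoma 1, and 1 to 4 of them on the dysplasia arrays. Groups did not overlap for 5 of the 6 in dysplasia against normal. Summed intensities of the 8 tested duct markers were 4658 to 31953 in normal glands, 4660 to 9033 in dysplasia and 2316 to 10744 in adenocarcinoma. Those of the 9 acinar markers were 172888 to 295821 in normal glands, 34687 to 68642 in dysplasia and 44792 to 245117 in adenocarcinoma. The 5 tested of 7 markers of the granular convoluted tubule had medians of 15.24, 15.31 and 14.49 on the normal arrays, 8.73, 12.76 and 8.12 on the dysplasia arrays and 15.00, 10.54 and 8.29 on the adenocarcinoma arrays. Groups did not overlap, dysplasia lower, for 6 of 9 acinar, 4 of 5 granular tubule, 4 of 8 duct, 3 of 3 T cell and 2 of 3 B and plasma cell markers tested, and for 0 of 6 fibroblast and 0 of 7 macrophage markers. The same held for 3 of 4 basal and myoepithelial, 3 of 5 skeletal muscle, 1 of 6 endothelium, 1 of 3 hepatocyte (Ttr) and 1 of 1 nerve and glia markers. The duct marker Kit was higher on every dysplasia array, 1 of 8. Of all genes, 10.4% were lower and 12.3% higher on every dysplasia array. The part of these cell types in the lower enzyme values was not tested.

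Of 8 hepatocyte markers 3 were among the tested genes. Alb, Apoa1, Apoa2, Fgb and Serpina1a, the defining ones, were not. Whether these had no probe of that symbol or only dim ones was not looked up, so their level is not known here. Of the 3 tested, Apob stayed between 6.10 and 6.38, Ahsg was at 9.13 on adenocarcinoma 1 and at most at 6.77 on the other arrays, and Ttr was at 6.06, 6.86 and 6.28 in dysplasia and 11.76, 11.84 and 8.28 in normal glands. Markers of fibroblasts had medians of 10.66, 10.52 and 8.69 on the normal arrays, 7.66, 9.03 and 10.61 on the dysplasia arrays and 9.91, 9.07 and 11.86 on the adenocarcinoma arrays. Adenocarcinoma 3, where Gstm1, Gstm2 and Cyp1b1 were highest, had the highest fibroblast median. Markers of skeletal muscle had medians of 8.60, 8.35 and 6.80 on the normal arrays, 6.44, 6.31 and 6.51 on the dysplasia arrays and 6.83, 6.24 and 10.16 on the adenocarcinoma arrays, and their summed intensity was 20746 on adenocarcinoma 3 against at most 4395 on any other. The macrophage median, 11.07, was also highest there. The part of these cell types in the enzyme values of adenocarcinoma 3 was not tested.

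**Figure D5:**
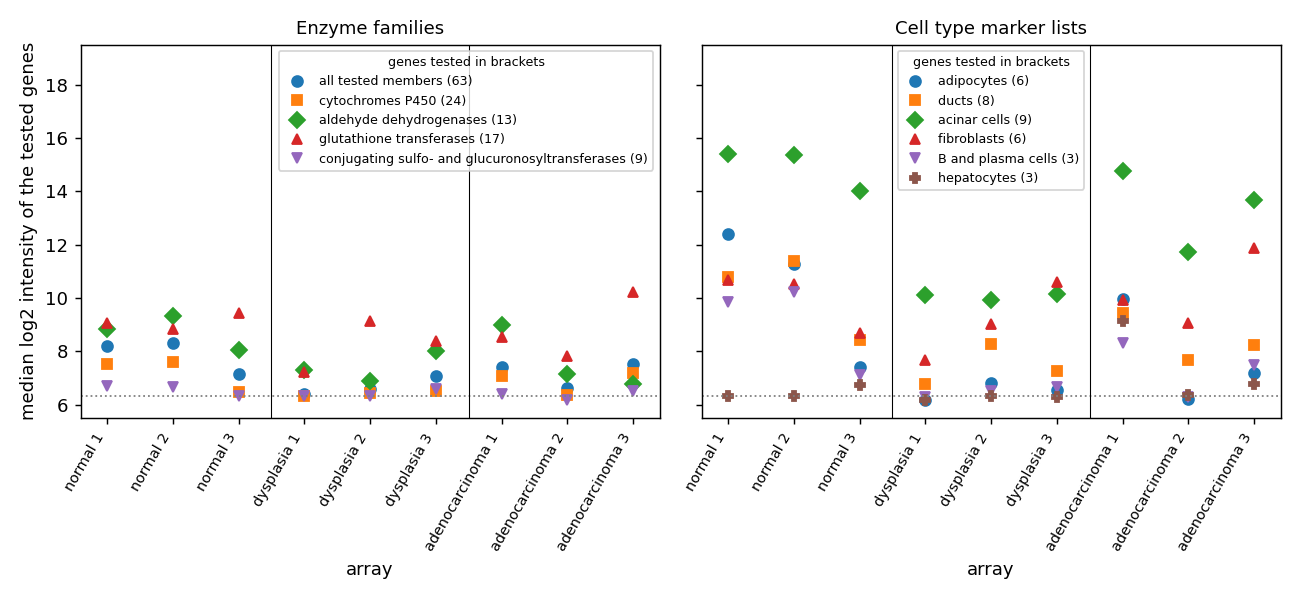
Median log2 intensity (vertical axis) of the tested genes of each enzyme family (left) and each marker list (right) on the 9 arrays, with the number of tested genes in brackets and the background level as a dotted line. The median of the 63 enzymes is highest on normal 1 and 2, at 8.18 and 8.33, and lowest on dysplasia 1, at 6.42, and the adipocyte median is also highest on normal 1 and 2, at 12.41 and 11.27.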

How the data were processed

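Total RNA of submandibular glands was measured on 9 Illumina arrays, 3 per group. The deposited values are linear intensities that the authors had normalized: sorted columns differ by at most 0.0992%, as quantile normalization leaves them, and limma appears, with no version, in the submitters' processing notes. A second table of 18 columns was not used, because its column names match no sample's labels. Scanner, genome build and background step were not given in the sources used here.

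Intensities were put on the log2 scale. The background level, 80.3 in intensity or 6.33 in log2, was estimated from the values themselves: the mode of all values (66.3) plus the 95th percentile of the spread of the values below it. A probe was kept (21040 of 45281) if 3 or more of the 9 arrays exceeded this level, and the kept probe with the highest mean stood for a gene (12848 genes). Genes were named from the platform annotation, which gave 34885 probes 1 symbol, 18 several and 10378 none. limma 3.58.1 in R 4.3.3 fitted group means over all 9 arrays, with empirical Bayes moderation and Benjamini-Hochberg adjustment over all genes (adjusted p under 0.05), and was tested on simulated data. With 3 arrays against 3, an exact permutation test of a single gene cannot reach that threshold, so groups that do not overlap are counted with no test. A fold against a group wholly below background uses the background level and is written "at least". Genes named with values were, in each comparison, the 8 enzymes with the largest fold change in each direction, any past the threshold, and a fixed set; others are named as chosen after their values were seen, where a count was small. Alternatives covered the scale, filter, probe choice, array weights, block, normalization, background and each array left out. Members and gene lists were chosen with earlier results of these data known.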

Additional observations from a re-analysis of the deposited data

How the results depend on the processing

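The settings changed counts more than directions. On all 9 arrays 0 enzymes passed in each comparison, as did 0.0% of all genes. Array weights gave 43 in dysplasia against normal, 8 higher (12.7%, against 32.5% of all genes) and 35 lower (55.6%, against 28.4%). In adenocarcinoma against normal they gave 18, 3 higher (4.76%, against 17.9% of all genes) and 15 lower (23.8%, against 16.9%). With 1 array left out, 0 to 16 passed in dysplasia against normal and 0 to 10 in adenocarcinoma against normal. In adenocarcinoma against dysplasia 0 to 0 passed. The 16 and the 10 were reached without normal 3. They are 25.4% and 15.9% of the enzymes, close to the 23.6% and 15.4% of all genes. Enzymes without overlap numbered 14 to 34, 4 to 27 and 5 to 22 in these comparisons when 1 array was left out. With that array from 1 of the groups compared, these were 25.4% to 54.0%, 7.94% to 42.9% and 11.1% to 34.9%, against 25.6% to 59.3%, 23.1% to 55.7% and 15.9% to 32.3% of all genes. Without the filter on dim probes they numbered 22, 12 and 12, and with only probes above background on all arrays 7, 2 and 1, since more or fewer genes are tested. Counting every probe on its own gave 7 in adenocarcinoma against normal, and subtracting the mode with a floor of 16 gave 2 in adenocarcinoma against dysplasia. Of the 22 without the filter in dysplasia against normal, 21 were lower and 1 higher, of 132 genes. The shares of all genes there were 9.21% and 9.78%. For the other counts at these settings no share of all genes is given, so they cannot be set against all genes. Of the alternatives for the 48 fold changes, 885 kept direction and side of the threshold, 37 newly passed and 18 reversed. Leaving out 1 array turned the direction of 10 of them. In dysplasia against normal, Cyp4v3 then lay between -0.077 (without dysplasia 3) and 0.53, with -0.02 without dysplasia 2, and Gstm5 between -0.20 (without dysplasia 2) and 0.30, with -0.01 without normal 2. In adenocarcinoma against normal, the lowest values came without adenocarcinoma 3: Cyp1b1 lay between -0.27 and 2.18, Gstt1 between -0.027 and 1.25, Gstt2 between -0.28 and 0.69 and Cyp2j9 between -0.55 and 1.07. The range of Gstt2 is that of the probe that stood for it. Cyp2j9 was also at -0.43 with array weights and -0.16 without normal 3, and Sult2b1 lay between -0.052 (without adenocarcinoma 2) and 1.52. In adenocarcinoma against dysplasia, Sult2b1 lay between -1.23 and 0.56 (without dysplasia 3), with 0.055 under array weights, Aldh3a2 between -0.33 and 0.057 (without adenocarcinoma 3) and Gstt3 between -0.66 and 0.19 (without dysplasia 1). The cause of these reversals was not tested. The replicate numbers share only a number: deviations of same-numbered arrays correlated at -0.46 to 0.24, and with the replicate block 0 enzymes passed in each comparison. Signal over background limits the rest, since 69 of the 132 genes were not tested.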
